A study of Mus musculus with 29 samples.

Results

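The genes described here encode actin regulators of blood-derived cells: Bin2, Hcls1, Coro1a, Was, Arpc1b, Nckap1l, Dock2, Vav1, Lcp1 and Fermt3. These 10 genes, in a table of 36172 gene rows, were picked on measured values, because Bin2 and Hcls1 were among the genes with the highest ratio of C Pos to C Input, so their levels in those groups are given as a description with no test. Counts came from TRAP-RNAseq, in which ribosomes that carry an EGFP-tagged L10a protein are pulled from a brain homogenate with an antibody. Aldh1l1-Cre/Ert2+; NuTRAP+ mice tag astrocyte ribosomes, and Cx3cr1-Cre/Ert2+; NuTRAP+ mice tag those of microglia. All mice were heterozygous for both transgenes and had received tamoxifen on 5 consecutive days at about 3 months of age, and both sexes were used. From each mouse a half-brain was homogenised. Input is the cleared homogenate, Neg is the RNA left unbound, Pos is the RNA held on the beads, and Slice is whole tissue. The Aldh1l1 line (A) gave A Neg and A Pos libraries of 3 mice (290, 293 and 294). The Cx3cr1 line (C) gave C Input, C Neg and C Pos libraries of 6 mice (155, 192, 194, 209, 210 and 277) and C Slice libraries of 5 of them, all but mouse 155. The Cx3cr1 promoter is also active in macrophages at the borders of the brain, so the tag is not restricted to parenchymal microglia.

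Actin filaments push the leading edge of a moving cell forward, and the genes for that machinery often come as a broadly expressed form and a form kept to blood-derived cells. In such cells an activated receptor recruits Vav1, which loads Rac with GTP, as does Dock2. Rac activates the WAVE complex, whose hematopoietic scaffold is Nckap1l, while Cdc42 opens Was. Both then switch on the Arp2/3 complex, of which Arpc1b is a subunit, and new branches are held by Hcls1, bundled by Lcp1 (L-plastin) and turned over with the help of Coro1a. Fermt3 (kindlin-3) joins integrin tails to this network, and Bin2 is a BAR-domain protein that senses membrane curvature at podosomes and phagocytic cups. Microglia use the same machinery to extend processes and to engulf particles.

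Total counts per library ranged from 8782235 to 25137834 in the A groups, from 15486605 to 26857866 in C Pos, C Neg and C Input, and from 4260949 to 25026611 in C Slice. The lowest is the C Slice library of mouse 210, whose levels of several of these genes stood apart, and the fold changes against C Slice are also given without it. Levels are CPM, the raw count over the library's total scaled to 1e6 counts. The summed CPM of 14 reference microglia genes was 3737 to 9138 in C Pos and 448 to 498 in C Input, and in the A line it was 73.3 to 155 in A Pos and 414 to 671 in A Neg. The summed CPM of 7 astrocyte genes was 10618 to 18054 in A Pos and 2230 to 3014 in A Neg, so each Pos fraction carried the markers of its labelled cell. In bulk RNA, fewer cells of a type and less RNA per cell cannot be told apart.

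Dock2, the Rac exchange factor of blood cells, is on 2 rows of the table (chromosome 11, minus strand), and both are listed at 0 in all 29 libraries. Of the 452 rows whose identifier was split by position in this way, 429 are at 0 in every library. Mtap2, a gene that neurons use at high levels, is also listed at 0 in every library, though its row is not split. A listed 0 on a split row is therefore not read as absence of the transcript, and the values below cover the other 9 genes.

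The table places Coro1a on chromosome 7 (126699774 to 126704754, minus strand), Was on chromosome X (8081466 to 8090491, minus strand) and Arpc1b on chromosome 5 (145114256 to 145128186, plus strand). Nckap1l is on chromosome 15 (103453825 to 103498800, plus strand), Vav1 on chromosome 17 (57279100 to 57329236, plus strand), Lcp1 on chromosome 14 (75131123 to 75230842, plus strand) and Fermt3 on chromosome 19 (6998958 to 7019469, minus strand). In GENCODE some of these genes overlap others on the opposite strand, Coro1a with Bola2, Was with Gm22083, Arpc1b with Pdap1, Lcp1 with Gm15628 and Gm15629, and Fermt3 with Trpt1. The reads were aligned with strand and kept only in the matching direction. Bin2 overlaps Mir6961 on its own strand, which strand does not separate.

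RefSeq promoter sequences (GRCm38.p6, 250 bases before each start) were at hand for 8 of the 10 genes in 10 entries, with none for Bin2 and Nckap1l. Blood-cell promoters often carry a purine-rich site of the ETS factor PU.1, searched here as GAGGAAGT and as its shorter part GAGGAA, and the RUNX core TGTGGT. Both strands were searched. GAGGAAGT occurred in 1 of the 10 entries, that of Vav1, and in 2.44% of all 32851 promoters. GAGGAA, which lies inside it, occurred in 2 entries (Dock2 and Vav1) and in 23.2% of all promoters. TGTGGT occurred in 2 entries (Was and Fermt3) and in 14.1% of all promoters, and TATAAA in 1 entry (Hcls1) and in 12.4%. The Vav1 promoter is shown as the entry with the long ETS match, at chr17:57278850-57279099 on the plus strand, where the match in capitals runs from 11 to 4 bases before the start. The promoters of Was (chrX:8090492-8090741, minus strand) and Fermt3 (chr19:7019470-7019719, minus strand) were added after the matches were seen, with TGTGGT in capitals. The Was match runs from 37 to 32 bases before the start. The Fermt3 matches run from 61 to 56 and from 24 to 19 bases before it. All matches shown are on the strand of the gene, and a match is a description of the letters, not a bound site.
Vav1: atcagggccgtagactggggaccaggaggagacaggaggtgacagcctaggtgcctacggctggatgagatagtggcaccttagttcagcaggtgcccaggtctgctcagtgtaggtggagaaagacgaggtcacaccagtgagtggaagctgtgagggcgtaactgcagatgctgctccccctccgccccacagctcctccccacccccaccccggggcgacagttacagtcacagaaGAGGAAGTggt
Was: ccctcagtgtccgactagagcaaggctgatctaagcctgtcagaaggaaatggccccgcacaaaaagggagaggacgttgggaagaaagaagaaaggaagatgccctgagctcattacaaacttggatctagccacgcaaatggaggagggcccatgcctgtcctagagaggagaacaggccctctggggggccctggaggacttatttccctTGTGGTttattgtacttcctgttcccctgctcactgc
Fermt3: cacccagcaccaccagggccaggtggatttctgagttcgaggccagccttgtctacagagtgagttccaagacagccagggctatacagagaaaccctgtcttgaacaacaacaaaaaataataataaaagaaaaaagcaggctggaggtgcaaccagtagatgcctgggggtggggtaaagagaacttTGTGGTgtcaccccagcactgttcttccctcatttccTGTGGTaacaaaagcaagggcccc

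Bin2 and Hcls1, at the head of the list, were near 6 CPM in the bulk fractions and far above that on the beads of the microglia line. Bin2 lies on chromosome 15 (minus strand, 100641082 to 100669500 in mm10). In C Pos its lowest, median and highest CPM were 65.4, 88.4 and 168 (98.2 ± 35.9, SD, n = 6). The corresponding values were 4.32, 6.07 and 6.70 in C Input and 3.50, 6.83 and 7.47 in C Neg. In C Slice the 5 libraries held 4.63, 6.11, 7.30, 16.2 and 5.23 CPM for mice 192, 194, 209, 210 and 277. A Pos libraries held 0.855, 0.683 and 0.852 CPM and A Neg libraries 4.67, 6.66 and 5.24 CPM for mice 290, 293 and 294. Every C Pos library was above, and every A Pos library below, all libraries of the other groups. The fitted log2 fold change of C Pos over C Input was 4.12 ± 0.22 (SE), or 17.4-fold. Hcls1, the hematopoietic cortactin (chromosome 16, plus strand, 36934983 to 36963214), followed the same order. Its C Pos values were 62.3, 84.3 and 149 CPM as lowest, median and highest, against 3.94, 5.25 and 7.10 in C Input and 5.15, 6.21 and 8.13 in C Neg. Its C Slice libraries ranged from 5.63 to 8.43 CPM, and to 6.19 CPM without mouse 210. The A Pos libraries of mice 290, 293 and 294 held 2.27, 1.52 and 0.620 CPM, and their A Neg libraries 9.11, 7.13 and 4.16 CPM. The log2 fold change of C Pos over C Input was 4.08 ± 0.23 (SE), or 16.9-fold.

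**Figure D1:**
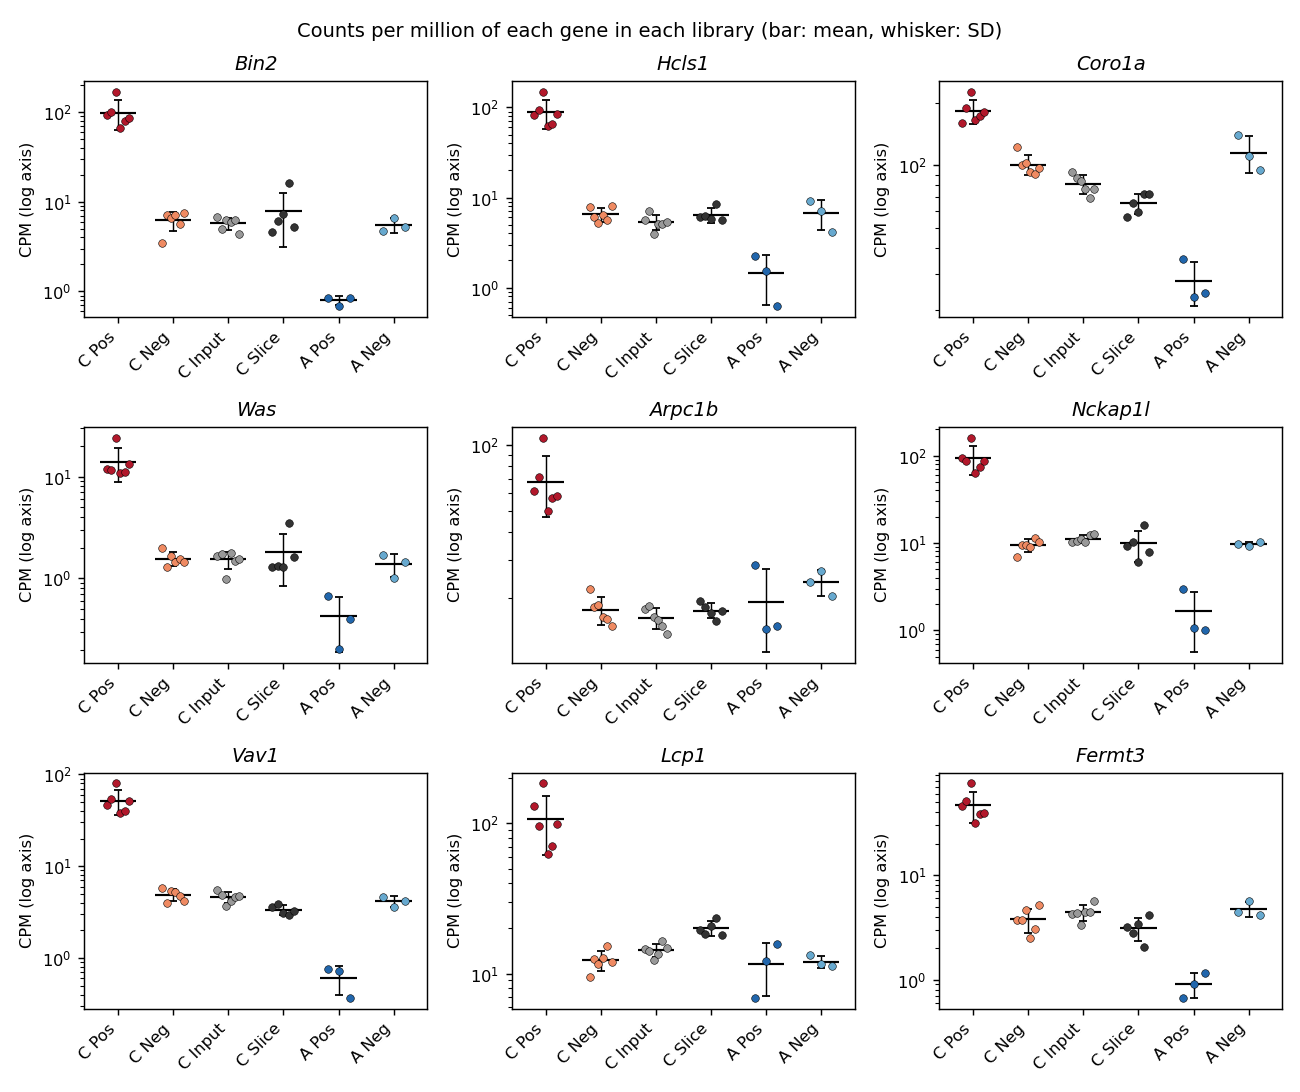
CPM (log axis) of the 9 genes with counts in each of the 29 libraries, by group, with the mean (bar) and SD (whisker). All 9 genes sit higher in every C Pos library than in any C Input, C Neg, C Slice or A Neg library, and Coro1a starts from the highest level in the bulk fractions.

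Among the signalling genes upstream of actin, Vav1 was 37.9 to 79.9 CPM in C Pos and 3.65 to 5.51 CPM in C Input (log2 fold change 3.51 ± 0.18, SE). Was, the Wiskott-Aldrich protein that Cdc42 opens, was 11.0 to 24.1 CPM in C Pos and 0.997 to 1.79 CPM in C Input (3.18 ± 0.23). Nckap1l, the WAVE scaffold, was 63.8 to 161 CPM against 10.1 to 12.6 CPM (3.09 ± 0.20). Fermt3, the integrin activator, was 31.5 to 75.5 CPM against 3.34 to 5.62 CPM (3.44 ± 0.21). For these 4 genes the C Pos and C Input ranges lay apart, as did those of C Pos and C Neg. Of all genes tested, 10.0% had C Pos libraries all above C Input, and since the choice of genes used these groups nothing is read from the count.

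Lcp1, Arpc1b and Coro1a had the smallest ratios of the 9. Lcp1, the actin bundler, was 62.2 to 185 CPM in C Pos and 12.3 to 16.4 CPM in C Input (log2 fold change 2.92 ± 0.25, SE). Arpc1b was 50.0 to 108 CPM against 13.7 to 18.5 CPM (2.08 ± 0.17). Coro1a was 160 to 225 CPM against 69.6 to 93.1 CPM (1.18 ± 0.09), and its 2.27-fold ratio was the smallest of the 9. Over the 9 genes the median log2 fold change was 3.18, against -0.0028 for all 13840 genes tested and 3.65 for the 14 reference microglia genes. Against C Neg the 9 values ran from 0.88 (Coro1a) to 4.01 (Bin2), against C Slice from 1.5 (Coro1a) to 3.94 (Vav1), or from 1.52 (Coro1a) to 4.09 (Bin2) without the C Slice library of mouse 210, and against A Pos from 1.51 (Arpc1b) to 6.67 (Bin2). These 4 comparisons share the C Pos libraries. Was passed the count filter only through C Pos in the comparison with C Input.

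Compared per length, on CPM per kb of exon, the order of the genes changed between fractions. Coro1a headed every group, at 65.2 ± 8.5 in C Pos (SD, n = 6) and 29.1 ± 3.0 CPM per kb in C Input. In C Pos it was followed by Bin2 at 38.8 ± 14.2 and Hcls1 at 35.5 ± 12.5, with the other 6 genes between 5.82 (Was) and 15.9 CPM per kb (Nckap1l). In C Input the next gene was Arpc1b at 3.18 ± 0.35, followed by Bin2 at 2.26 ± 0.36 and Hcls1 at 2.13 ± 0.41. In C Pos every pair of neighbours in this order had overlapping ranges over libraries. In C Input the ranges of Coro1a, Arpc1b and Bin2 did not overlap, nor did those of Vav1 and Fermt3, while the other neighbours overlapped. In A Pos the order was Coro1a (9.92 ± 2.41, n = 3), Arpc1b (3.76 ± 1.53) and Lcp1 (1.22 ± 0.47), whose ranges lay apart for the first 3 places, with the other 6 genes at or below 0.582 CPM per kb.

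The level on the beads varied between mice, and the 9 genes varied together. The C Pos library of mouse 194 was the highest for all 9 genes, and that of mouse 209 was the lowest for all but Coro1a. The coefficient of variation over the 6 C Pos libraries ran from 13.1% (Coro1a) to 42.0% (Lcp1). After division by the summed CPM of the 14 reference microglia genes in the same library it fell for 8 of the 9, to 4.50% for Bin2, 4.87% for Hcls1 and 5.58% for Fermt3. Lcp1 kept 19.5%, with its highest share in mouse 155. For Coro1a it went the other way, from 13.1% to 19.4%, with the lowest share, 2.47% of the reference sum, and the highest, 4.40%. Bin2 stayed between 1.63% and 1.83% of the reference sum in all 6 libraries.

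**Figure D2:**
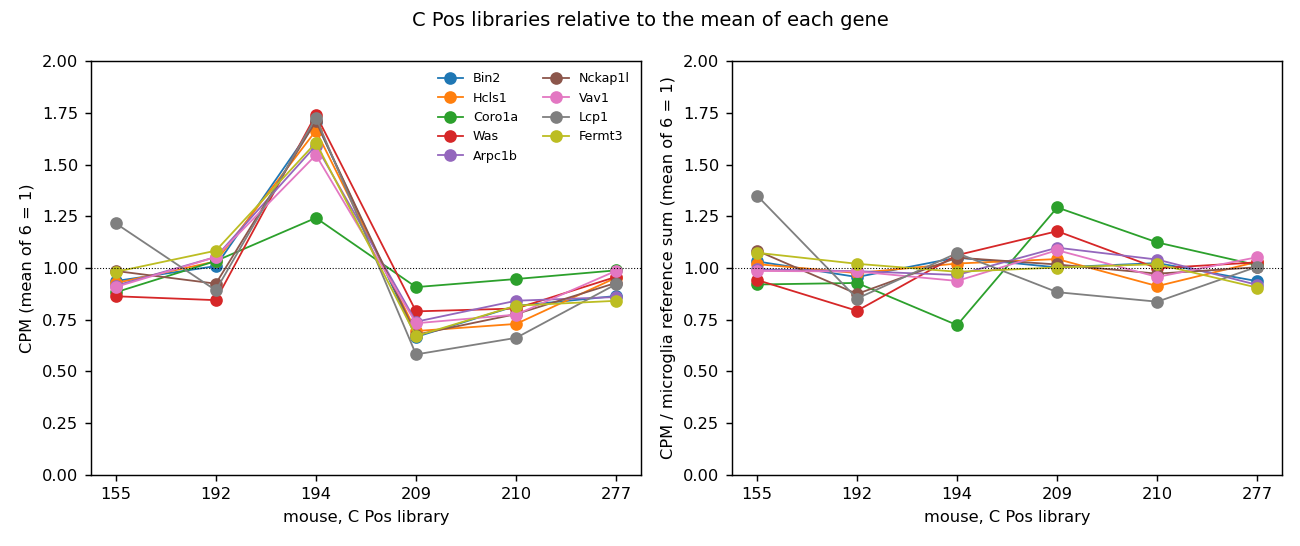
Level of each gene in the 6 C Pos libraries relative to its mean over them, as CPM (left) and as CPM over the summed CPM of 14 reference microglia genes (right), and lines join the points of one gene. Mouse 194 is the highest for all 9 genes on the left, while on the right it is the highest for Bin2 (1.83% of the reference sum) and the lowest for Coro1a (2.47%), and Lcp1 is highest in mouse 155.

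The genes whose log2 CPM was most like that of Bin2 over the 29 libraries were Fcgr3 (Pearson r = 0.991), Capn3 (0.985), Irf8 (0.984), Laptm5 (0.984) and Rnase4 (0.984), among 11918 genes with a mean of at least 5 CPM. Fcgr3 is an Fc gamma receptor and Irf8 a transcription factor of myeloid cells. Of the genes described here, Nckap1l (0.976) and Hcls1 (0.967) came nearest and Arpc1b (0.831) last among the 7 compared, which leave out Was for its mean under 5 CPM, and Cx3cr1 stood at 0.961. The points share mice and fractions, so these values only describe the pattern across 6 groups.

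Markers of other cells were also summed. The border macrophage list was higher in C Pos for 7 of its 7 genes, at 75.1 to 248 CPM against 11.6 to 26.9 CPM in C Input, with none at 0. Mouse 194 set both upper limits, and without it the ranges were 75.1 to 109 CPM and 11.6 to 17.5 CPM. The T and B lymphocyte list summed to 9.09 to 17.4 CPM in C Pos and 8.64 to 12.8 CPM in C Input, with 7 of 10 genes higher and none at 0. The monocyte and neutrophil list summed to 11.2 to 25.8 CPM and 9.55 to 11.9 CPM, with 6 of 11 genes higher, Ly6g at 0 in both groups and Elane at 0 in C Pos. The platelet list summed to 19.9 to 40.9 CPM and 14.0 to 19.9 CPM, with 4 of 7 genes higher and Gp6 at 0 in C Pos. The endothelial list was higher in C Pos for 7 of its 7 genes, at 97.6 to 201 CPM against 102 to 120 CPM, with overlapping ranges. The astrocyte list was lower for 7 of 7 genes, at 2055 to 3007 CPM against 3112 to 3569 CPM, and the oligodendrocyte list for 7 of 7 genes, at 1248 to 3268 CPM against 4193 to 4829 CPM. The neuron list, at 4458 to 6855 CPM against 6258 to 6587 CPM, overlapped. The part of these cells in the levels of the 9 genes and in the paralog values that follow was not tested.

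The paralogs of these genes are forms that other brain cells use as well. Of 23 paralogs, 22 were tested in C Pos against C Input with edgeR's quasi-likelihood test (Benjamini-Hochberg adjusted p under 0.05), and 3 were higher and 11 lower, with a median log2 fold change of -0.14. Of all genes tested, 23.2% were called higher and 25.6% lower. Nckap1, the WAVE scaffold of most cells, fell by 0.92 on the log2 scale (SE 0.09, adjusted p = 1.61e-06). Wasl (N-WASP) fell by 0.53 (SE 0.07, adjusted p = 2.27e-05) and Fermt2, the kindlin of most adherent cells, fell by 0.43 (SE 0.06, adjusted p = 9.37e-05). The plastins Pls1 and Pls3 fell by 0.93 and 0.19 on the log2 scale, the latter close to the threshold (adjusted p = 0.0496). Of the Dock paralogs, Dock5 fell by 1.02, Dock1 by 0.98, Dock4 by 0.68 and Dock3 by 0.36. Vav3 fell by 0.36 and Amph by 0.35.

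The 3 paralogs that were higher were Coro1b (log2 fold change 0.87 ± 0.09, adjusted p = 3.78e-06), Bin1 (0.42 ± 0.07) and Bin3 (0.39 ± 0.09). Coro1b thus lay close to Coro1a at 1.18. The other coronins were not called, at -0.10 for Coro2b, -0.05 for Coro2a, 0.10 for Coro1c, 0.13 for Coro7 and 0.90 ± 0.37 for Coro6. Cttn, the cortactin of most cells and the paralog of Hcls1, was at -0.03 ± 0.05 (adjusted p = 0.70), Arpc1a at 0.07 ± 0.11 (adjusted p = 0.60) and Vav2 at 0.37 ± 0.15 (adjusted p = 0.0536). Fermt1 was not tested for lack of counts.

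**Figure D3:**
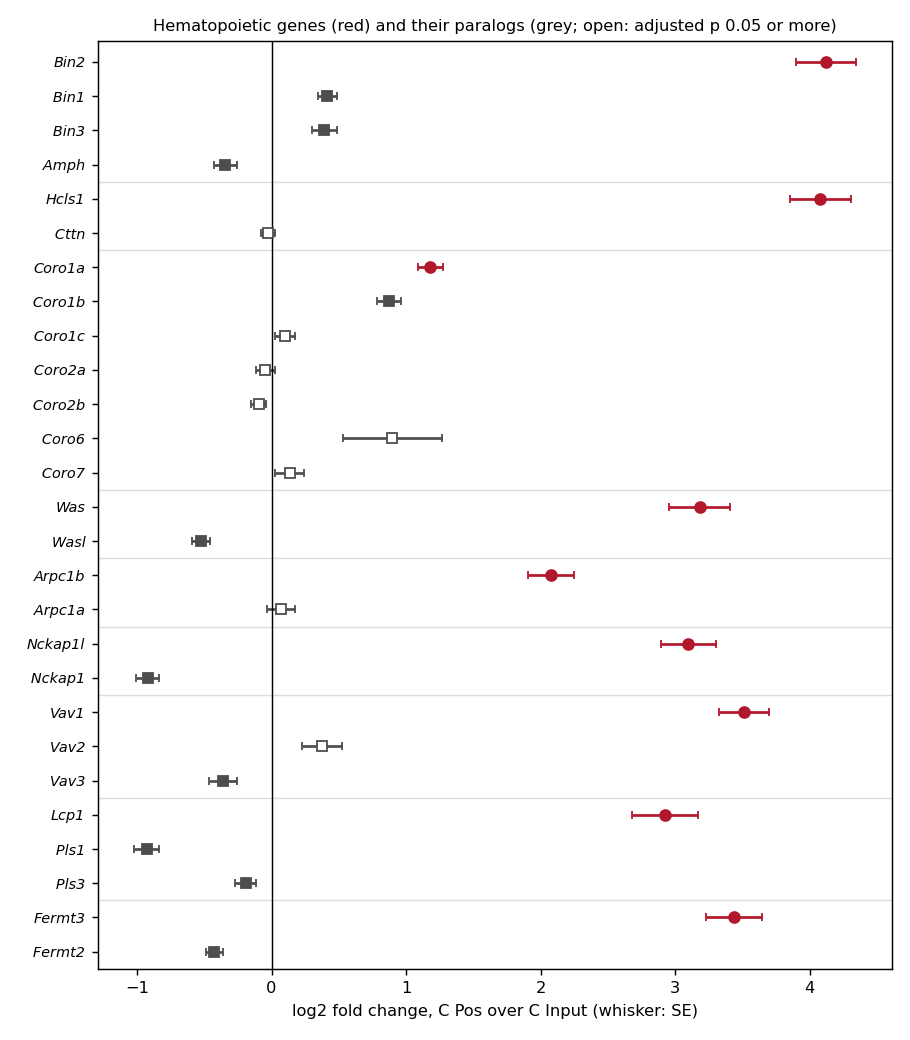
Log2 fold change of C Pos over C Input, with SE, for the 9 hematopoietic genes (red circles) and, under each, its paralogs (grey squares, open where the adjusted p was 0.05 or more). The red points lie between 1.18 and 4.12 and the grey ones between -0.93 and 0.90.

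Since each gene and its paralogs encode related parts, the share of the hematopoietic form in its family was computed per kb of exon. Hematopoietic is only a label here. Arpc1b and Lcp1 were not called lower in A Pos than in A Neg, and Coro1a was at 69.6 to 93.1 CPM in C Input. Hcls1 made up 50.9% ± 8.8 (SD, n = 6) of Hcls1 plus Cttn in C Pos, 5.94% ± 1.08 in C Input, 2.14% ± 1.60 in A Pos and 7.51% ± 2.61 in A Neg (n = 3 each). Vav1 was 75.0% ± 3.7 of the 3 Vav genes in C Pos and 21.1% ± 2.6 in C Input, and it was 3.77% ± 1.52 in A Pos against 25.1% ± 5.5 in A Neg. Fermt3 went from 4.35% ± 0.72 of the kindlins in C Input to 39.0% ± 6.7 in C Pos, and was 0.32% ± 0.05 in A Pos. Arpc1b and Lcp1 went the other way in the Aldh1l1 line. Arpc1b was 8.84% ± 2.37 of its pair in A Pos and 6.13% ± 0.74 in A Neg, with ranges that lay apart, and Lcp1 was 3.86% ± 0.76 of the plastins in A Pos and 3.1% ± 0.45 in A Neg, with overlapping ranges. Nckap1l was 28.1% ± 8.3 of its pair in C Pos and 2.40% ± 0.19 in C Input, and Was was 26.5% ± 8.1 and 2.70% ± 0.47. The Hcls1 share was highest in mouse 194, at 65.7%, and 41.5% to 54.9% in the other C Pos libraries. Lcp1 (24.1% ± 9.2), Bin2 (21.4% ± 5.2) and Arpc1b (18% ± 7.0) had the smallest shares there, and Coro1a was 36.2% ± 2.1 of the coronins there and 23.4% ± 1.9 in C Input.

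**Figure D4:**
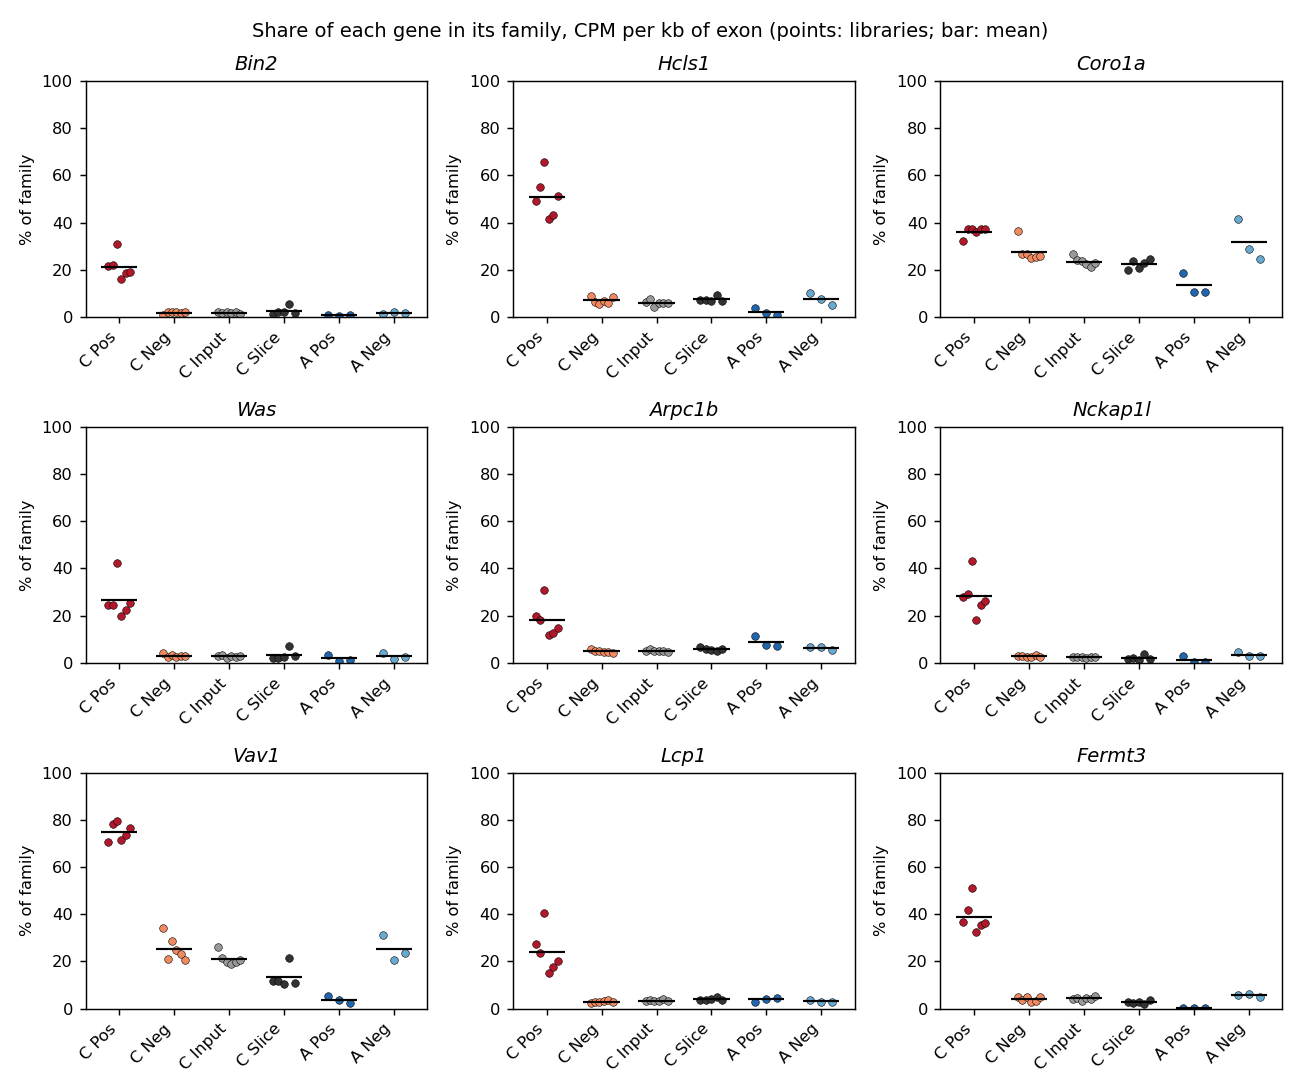
Share (percent, axis from 0 to 100) of each hematopoietic gene in the summed CPM per kb of itself and its paralogs, for each library by group, with the mean as a bar. In C Pos Vav1 reaches 70.7% to 79.4% and Hcls1 41.5% to 65.7%, and the other groups lie lower for all 9 genes on average.

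The rest of the pathway was read from lists of related genes, in C Pos against C Input with the same test. Over all lists 80 of 83 genes were tested, and 50 were higher and 12 lower, with a median log2 fold change of 0.42. Of all genes tested, 23.2% were called higher and 25.6% lower. Of the signalling genes next to the receptor 9 of 10 tested were higher, a count that includes Btk, taken up below. Tyrobp, an adaptor of activating receptors that is also on the reference microglia list, rose by 3.92 ± 0.25 on the log2 scale (SE, adjusted p = 7.68e-08). The kinase Btk, at 3.75 ± 0.22, is one of 4 among the 50 that passed the count filter only through C Pos, where they are high, so those 4 had to differ and their calls are no support. The lowest were Lyn at 2.31 ± 0.16 and Plcg1, not called, at 0.17 ± 0.25. Of the integrin genes 9 of 11 were higher and none lower, led by Itgb2 (3.53 ± 0.19) and Itgam (3.33 ± 0.22), the chains of the phagocyte receptor Mac-1. Rap1a (0.15 ± 0.07) and Tln2 (-0.08 ± 0.07) were not called.

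The complexes that act on the filament held genes of both directions, where 23.2% of all genes tested were called higher and 25.6% lower. The lists are short, so their counts are not read as a result about a complex. Of the 9 WAVE complex genes 4 were higher and 5 lower. Abi3 rose by 3.55 ± 0.26 and Wasf2, a WAVE form prominent in blood cells, by 1.14 ± 0.17 on the log2 scale, while Wasf3 fell by 0.83 (SE 0.10) and Abi2 fell by 0.63 (SE 0.07). Of the 8 other Arp2/3 subunits and related genes 4 were higher and 2 lower, all with small changes: Arpc3 rose by 0.48 ± 0.09 and Arpc2 by 0.36 ± 0.07, and Actr3b fell by 0.30 and Actr2 fell by 0.20. Of the 9 WASP partners 1 was higher, Wipf1 (0.75 ± 0.12), and 2 were lower, Wipf3 (-0.45 ± 0.09) and Fnbp1 (-0.39 ± 0.08), with Trip10 (0.32 ± 0.13) the second highest and not called. Of the 20 actin and actin-binding genes 14 were higher and 3 lower. Gmfg, the hematopoietic glia maturation factor, was at 3.62 ± 0.30 and passed the filter only through C Pos, and Myo1f rose by 3.41 ± 0.23, while Enah fell by 0.70 (SE 0.11) and Gmfb, the brain form, fell by 0.35 (SE 0.08).

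The Aldh1l1 line offers a comparison the choice of genes did not use. Of the 9 genes 7 had CPM values in A Pos all below those in A Neg. Of all genes tested, 41.7% did so. That share covers only genes that passed the count filter, so nothing is read from the count of 7. In the same comparison edgeR's quasi-likelihood test called 6 lower in A Pos: Bin2, Hcls1, Coro1a, Nckap1l, Vav1 and Fermt3. None was called higher, either at an unadjusted p under 0.05 or with DESeq2. Of all 13324 genes tested, 24.8% were called lower and 26.8% higher. Bin2, Hcls1, Vav1 and Fermt3 passed the count filter only through A Neg, where they were higher, and Was did not pass it, so their count is not set against the share of all genes. Coro1a and Nckap1l passed in both groups. Without the filter the same test called 6 of these genes lower. Bin2 was 5.54-fold lower (log2 fold change -2.47 ± 0.30, adjusted p = 0.000473) and Vav1 5.45-fold lower (-2.45 ± 0.38, adjusted p = 0.00148). The filter favoured this direction for Bin2, Hcls1, Vav1 and Fermt3, so only Coro1a and Nckap1l have calls free of it.

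Nckap1l was at 2.94, 1.05 and 1.01 CPM in A Pos and at 9.67, 9.32 and 10.3 CPM in A Neg for mice 290, 293 and 294 (log2 fold change -2.25 ± 0.44, adjusted p = 0.00434). The A Neg libraries were close to each other, and without mouse 294 the adjusted p was 0.0518. Fermt3 was at 0.672, 0.905 and 1.17 CPM in A Pos and at 4.44, 5.59 and 4.12 CPM in A Neg (-2.0 ± 0.31, adjusted p = 0.00158). Hcls1 was at -1.89 ± 0.52 (adjusted p = 0.0184), and without mouse 293 its adjusted p was 0.112. Coro1a was at 35.3, 23.2 and 24.3 CPM in A Pos and at 140, 110 and 94.4 CPM in A Neg for mice 290, 293 and 294 (-1.71 ± 0.25, adjusted p = 0.00116). Was had 4.22 to 9 counts per A Pos library, too few for the filter, and without it the log2 fold change was -1.37 ± 0.60 (adjusted p = 0.109).

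Arpc1b and Lcp1 were not called in this comparison. Arpc1b was at 28.3, 14.5 and 14.9 CPM in A Pos and at 23.8, 26.7 and 20.5 CPM in A Neg for mice 290, 293 and 294, so the groups overlapped (log2 fold change 0.05 ± 0.30, adjusted p = 0.905). Lcp1 was at 6.88, 12.1 and 15.7 CPM in A Pos and at 13.2, 11.6 and 11.2 CPM in A Neg (0.30 ± 0.29, adjusted p = 0.422). The mouse with the lowest A Pos value of Lcp1, 290, had the highest value of Arpc1b. Without mouse 290 Lcp1 was called higher (0.60, adjusted p = 0.0135) and Arpc1b was at -0.37 (adjusted p = 0.0666). All 14 reference microglia genes were lower in A Pos, by a median of 2.46 on the log2 scale, and the erythrocyte list went from 252 to 495 CPM in A Neg to 32.7 to 105 CPM in A Pos. The lymphocyte list, with 9 of 10 genes lower and Cd8b1 at 0 in A Pos, went from 12.8 to 13.5 CPM down to 2.57 to 5.81 CPM. The oligodendrocyte list, with 7 of 7 genes lower, went from 5633 to 6926 CPM down to 784 to 901 CPM. The neuron list, with 6 of 7 genes lower and Mtap2 listed at 0, went from 5494 to 6884 CPM down to 1265 to 1729 CPM. The border macrophage and endothelial lists were lower for 7 of 7 genes each, though the endothelial ranges overlapped (70.2 to 98.1 CPM in A Pos and 88.2 to 152 CPM in A Neg). The platelet list (26.9 to 49.9 CPM in A Pos and 28.0 to 54.2 CPM in A Neg) and the monocyte and neutrophil list (4.69 to 18.3 and 12.3 to 22.6 CPM) also had overlapping ranges, with 6 of 7 and 8 of 11 genes lower. The part of these lists in the values of the 9 genes was not tested.

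**Figure D5:**
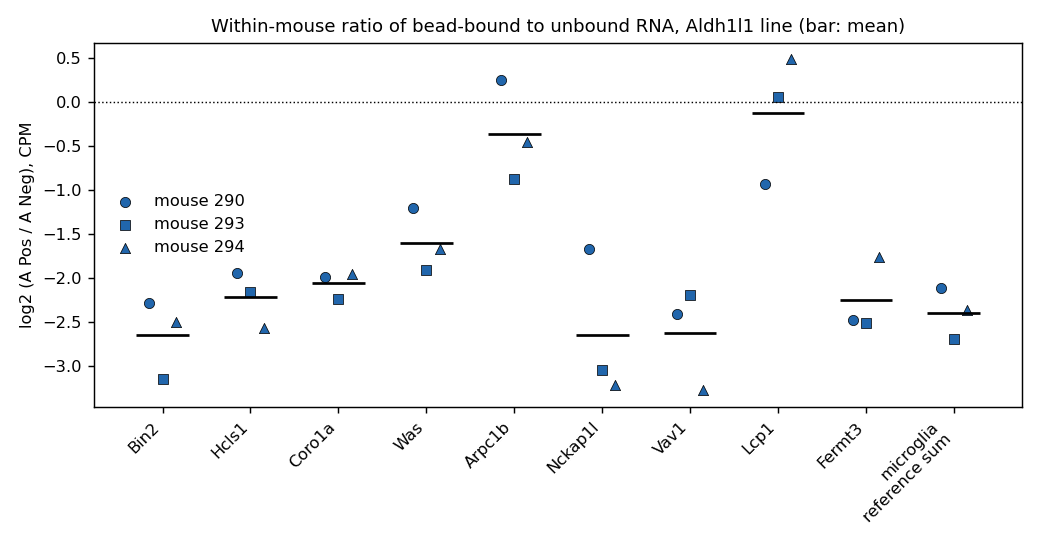
Log2 ratio of CPM in A Pos to A Neg within each of the 3 Aldh1l1 mice, with the mean as a bar, for the 9 genes and for the summed CPM of 14 reference microglia genes. The reference sum lies at -2.12, -2.69 and -2.36, 7 genes lie below 0 in all mice, and Arpc1b and Lcp1 have mice on both sides of 0.

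The values in A Pos against A Neg moved with the scaling of the libraries. With library totals in place of TMM factors the median log2 fold change of all genes moved by -0.35, and the calls moved from 3568 higher and 3304 lower to 2438 higher and 4818 lower. The 6 genes stayed called lower, with the same filter limit for Bin2, Hcls1, Vav1 and Fermt3. Arpc1b moved to -0.31 and Lcp1 to -0.04, neither called. Relative to the median of all genes Lcp1 was at 0.26 in the TMM fit and at 0.27 with library totals. The CPM ratios within mice use library totals and so lie lower than the TMM-scaled fold changes of the same genes.

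The paralogs in A Pos against A Neg were 5 higher and 11 lower of 22 tested, where 26.8% of all genes tested were higher and 24.8% lower. Fermt2 rose by 2.23 ± 0.18 on the log2 scale (adjusted p = 0.000112) and Dock1 by 2.13 ± 0.25 (adjusted p = 0.000438), while Vav2 (0.80 ± 0.23), Vav3 (0.58 ± 0.19) and Coro1b (0.54 ± 0.14) were also higher. Bin1 fell by 1.40 (SE 0.24), Coro2a by 1.75 (SE 0.21) and Dock3 by 1.42 (SE 0.17). Cttn (0.18 ± 0.18), Pls3 (0.02 ± 0.18) and Nckap1 (-0.08 ± 0.35) were not called. Of the pathway genes 75 of 83 were tested, and 21 were higher and 23 lower. Of the latter, 10 passed the filter only through A Neg, Tyrobp and Itgb2 among them. Both counts lie near the shares of all genes, so they are not read as a result about the pathway. In the integrin list the 3 genes that rose were Skap2 (2.15 ± 0.18), Itgb1 (0.99 ± 0.18) and Rap1a (0.61 ± 0.17), of which Skap2 and Itgb1 are named after their values were seen. Itgam (-2.18 ± 0.51) and Itgb2 (-1.94 ± 0.54) were among the 6 that fell. Of those 6 genes 4 passed the filter only through A Neg, so the count is no support. Tyrobp (-3.03 ± 0.39) was one of 4 receptor-proximal genes that fell, 3 of which passed only through A Neg, and Lyn (1.52 ± 0.26) was the one that rose. Without mouse 293 or mouse 294 these counts dropped, to 10 higher and 9 to 11 lower pathway genes and to 2 higher and 5 to 6 lower paralogs. With the mouse as a replicate block 29 pathway genes were higher and 28 lower.

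The unbound RNA and whole tissue of the Cx3cr1 line give a second comparison that the choice did not use, C Neg against C Slice. Of the 9 genes 2 were higher in C Neg and 1 lower, where 17.3% of all 13533 genes tested were higher and 21.3% lower. Coro1a was at 90.7 to 122 CPM in C Neg (median 98.5, n = 6) and at 56.0, 65.9, 59.6, 72.7 and 72.4 CPM in the C Slice libraries of mice 192, 194, 209, 210 and 277, and the groups did not overlap. Its log2 fold change was 0.61 ± 0.10 (SE, adjusted p = 0.000411). Lcp1 went the other way, at 9.41 to 15.3 CPM in C Neg and 18.1 to 23.6 CPM in C Slice, again with no overlap (-0.72 ± 0.11, adjusted p = 0.000344). Vav1 was at 4.02 to 5.76 CPM in C Neg and 2.93 to 3.90 CPM in C Slice (0.50 ± 0.16, adjusted p = 0.0218). The Vav1 call was lost with the mouse as a replicate block (0.45, adjusted p = 0.0649). It was also lost in a separate alternative, one fit of all 6 groups (0.48, adjusted p = 0.0511), and without mouse 194 (0.0502) or 209 (0.0882), and Vav1 passed the count filter only through C Neg. The Coro1a and Lcp1 calls held in each of these. Without the C Slice library of mouse 210 all 3 calls held, at 0.65 for Coro1a, -0.66 for Lcp1 and 0.47 for Vav1.

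The other 6 genes were not called between C Neg and C Slice, with log2 fold changes from -0.23 ± 0.28 (Bin2) to 0.20 ± 0.21 (Fermt3). Bin2, Was and Nckap1l were highest in the C Slice library of mouse 210, at 16.2, 3.50 and 16.0 CPM on 4260949 counts. Without that library their values turned from negative to 0.08, 0.18 and 0.16, still not called. In the same library the reference microglia sum was 642 CPM, against 423 to 485 CPM in the other C Slice libraries. The lymphocyte list summed to 10.1 to 12.2 CPM in C Neg and 2.41 to 7.24 CPM in C Slice (2.41 to 2.62 without mouse 210), with 5 of 10 genes higher in C Neg and none at 0. The endothelial list summed to 104 to 123 CPM in C Neg and 161 to 303 CPM in C Slice (274 to 303 without mouse 210), with 7 of 7 genes lower in C Neg. The oligodendrocyte list was also lower for 7 of 7 genes, at 4424 to 4915 CPM against 5964 to 8129 CPM, and the astrocyte list for 6 of 7 genes, at 2478 to 3336 CPM against 3444 to 3822 CPM. The monocyte and neutrophil list (9.89 to 21.9 against 4.87 to 15.1 CPM) and the platelet list (17.3 to 29.9 against 12.8 to 18.1 CPM) had overlapping ranges. The neuron list was higher in C Neg for 6 of 7 genes, at 5911 to 6796 CPM against 4826 to 6082 CPM (4826 to 5097 without mouse 210), and the other gene, Mtap2, is listed at 0. Their part in the Coro1a, Vav1 and Lcp1 differences was not tested.

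The unbound RNA of both lines was also compared, and few genes of any kind were called. A Neg against C Neg gave 0 calls among the 9 with edgeR and 0 with DESeq2, and 1 gene, Arpc1b, had an unadjusted p under 0.05 (log2 fold change 0.45 ± 0.14, adjusted p = 0.205). Of all 13616 genes tested, 0.125% were higher in A Neg and 0.125% lower, so nothing is read from 0 calls among 9 genes. The 9 log2 fold changes ran from -0.21 ± 0.18 (Vav1) to 0.45 (Arpc1b), and the ranges of all 9 overlapped. The line and whatever else differed between the mice of the lines cannot be told apart in this comparison, and a p over the threshold does not show equal levels. Between C Neg and C Input, which are given with no test, the 9 values ran from -0.23 ± 0.10 (Nckap1l) to 0.32 ± 0.09 (Coro1a), and the ranges of all 9 genes overlapped. Within mice, the log2 ratio of CPM in C Neg to C Input was above 0 in 6 of 6 for Coro1a (0.21 to 0.39), and below 0 in 6 of 6 for Lcp1 (-0.62 to -0.09) and Nckap1l (-0.54 to -0.10). The other 6 genes had mice on both sides of 0.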

How the data were processed

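TRAP fractions and whole tissue of 9 mice gave 29 RNA libraries, with groups and mice as labelled. In Strand NGS the authors trimmed and aligned reads to mm10 with strand and derived values per gene. The deposited raw values are estimated counts per gene, of which 82.4% of the nonzero ones are not whole (tolerance 1e-6), and they were rounded before any test. The deposited log2 values, which the authors made by DESeq normalization, were not used. All genes with over 20 counts in every library of at least 1 compared group were fitted with edgeR 4.0.16 (R 4.3.3, TMM factors, robust quasi-likelihood test, two-sided), with Benjamini-Hochberg adjustment over all genes tested and a threshold of 0.05. SE is the log2 fold change over the square root of F. Mean values are ± SD unless SE is given. Exon lengths are from GENCODE vM21 and promoters from RefSeq (GRCm38.p6). CPM divides the values by their library total, both before rounding, and log2 ratios within mice use a prior count of 2.

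Libraries of one mouse share its brain, so the mouse pairs them. Residual log2 CPM of libraries of one mouse correlated above 0.1 in 3 of 3 A Pos and A Neg pairs, 1 of 5 C Neg and C Slice pairs and 3 of 6 C Pos and C Input pairs. The fits had no block, and the block was an alternative, beside DESeq2 1.42.0, other scaling factors, no filter, one fit of all 6 groups and each mouse left out. The fits were tested on simulated data with known changes.

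The genes, lists and tests were chosen with earlier results of these data known, so levels in contrasts with C Pos or C Input carry no test for the 9 genes. Named genes are the chosen genes, their paralogs, the 2 highest and 2 lowest genes of each pathway list in C Pos against C Input and the 5 genes most like Bin2. One pathway list enters the counts over all lists and is not reported here on its own. Counting error falls with depth, and Was had few counts in A Pos. The labels do not say which mice were male or female. No protein sequences were used.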

Additional observations from a re-analysis of the deposited data

Results flagged for a closer look

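Gaps between libraries were compared with Dixon's 95% critical values for 36 combinations of gene and group in the C line, of which chance flags about 1 in 20, and 9 stood out. The C Pos library of mouse 194 was far above the other 5 for Bin2 (168 CPM), Hcls1 (149 CPM), Was (24.1 CPM), Arpc1b (108 CPM) and Nckap1l (161 CPM). The summed reference microglia genes of that library were also the highest of the group at 9138 CPM, as were its border macrophage markers at 248 CPM (75.1 to 109 CPM in the other 5), and its oligodendrocyte markers were the lowest of the group at 1248 CPM. The part of these in the levels was not tested. The C Slice library of mouse 210 was far above the other 4 for Bin2 (16.2 CPM), Hcls1 (8.43 CPM) and Was (3.50 CPM), on 68.9, 35.9 and 14.9 reads. The C Neg library of mouse 155 was far above the other 5 for Coro1a (122 CPM).

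The within-mouse ratio of Pos to Neg was above 0 in all 6 C mice and below 0 in all 3 A mice for 7 genes. The difference was not tested, and the genes were picked for high C Pos levels, which fixes the direction in the C mice. The mean log2 ratio in C minus that in A was 6.58 for Bin2, 5.94 for Hcls1, 2.91 for Coro1a, 4.62 for Was, 5.90 for Nckap1l, 5.97 for Vav1 and 5.83 for Fermt3.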

How the results depend on the processing

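Of 1038 values recomputed under an alternative, 981 kept their direction and their side of the threshold or moved little. The cause of the other changes was not tested. With library totals 2 paralogs were higher in A Pos (5 with TMM). With DESeq2, 5 paralogs were higher in C Pos than in C Input (3 with edgeR). In one fit of all 6 groups 1 of the 9 genes was higher in C Neg than in C Slice (2 alone), and the mouse as a replicate block also gave 1, which is the Vav1 call. The replicate block ended no other call among the 9 genes. With each mouse left out in turn, 0 to 1 of the 9 genes were higher and 5 to 7 lower in A Pos, 2 to 6 paralogs higher and 5 to 12 lower, and 10 to 28 pathway genes higher and 9 to 30 lower. In C Neg against C Slice 1 to 2 of the 9 genes were higher, and in C Pos against C Input 3 to 5 paralogs were higher, with 5 without mouse 210.

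The sign turned for log2 fold changes that were not called in the fits reported above. In A Pos against A Neg Arpc1b was at -0.31 with library totals, at -0.031 with the replicate block and at -0.37 to 0.32 with a mouse left out, and Lcp1 was at -0.043 with totals and at -0.033 to 0.60 with a mouse left out. In C Neg against C Slice library totals gave 0.0016 for Was, 0.0017 for Arpc1b and 0.013 for Nckap1l, no filter gave 0.0028 for Nckap1l, and the replicate block gave -0.039 for Hcls1 and 0.064 for Nckap1l. Leaving out the C Slice library of mouse 210, chosen after the data were seen, gave 0.08 for Bin2, 0.18 for Was and 0.16 for Nckap1l. A mouse left out gave -0.41 to 0.13 for Bin2, -0.069 to 0.19 for Hcls1, -0.11 to 0.20 for Was, -0.10 to 0.033 for Arpc1b and -0.14 to 0.11 for Nckap1l. In A Neg against C Neg Lcp1 was at -0.034 with totals, at -0.018 with no filter and at -0.093 to 0.073 with a mouse left out, Hcls1 at -0.20 to 0.35 and Was at -0.34 to 0.043.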
